A study of Mus musculus with 20 samples.

Results

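The immunoglobulin kappa V genes (Igkv) are the variable gene segments of the mouse kappa light chain locus on chromosome 6. Their members were chosen as every row of the deposited expression table whose mouse gene symbol starts with Igkv, which gave 103 of 25869 rows. Of these, 102 are annotated as V segments and 1 as a pseudogene (Igkv13-71-1) in the RefSeq table of GRCm38.p6. The rule itself uses no measured value.

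RNA was sequenced from 20 libraries, of which 10 are of the B lineage and 10 are mouse embryonic fibroblasts (MEFs), which do not rearrange immunoglobulin genes. The 6 lymphoma cell lines (labelled 14_179_IgMp, 15_180_IgMp, 16_202_IgMp and 17_213_IgMp, IgM positive, and 18_214_IgMn and 19_216_IgMn, IgM negative, and called lines 14 to 19 by the library number that opens the label) and the 2 primary tumours (libraries 20 and 21, labelled IgM positive) all carry the Eµ-Myc transgene, the dCas9a-SAM KI/+ cassette for CRISPR activation and an sgRNA for Bcl-2. They arose in lethally irradiated mice that had received transduced foetal liver stem and progenitor cells, and each line is the outgrowth of 1 mouse's tumour. The 2 preB-ALL libraries, labelled P190CreERLSLErg and P190RagCreErg, are called CreER-LSL-Erg and Rag-Cre-Erg here. They are BCR-ABL1 leukaemias grown with IL7, with RNA from another kit and another sequencing run. The MEFs are WT (2 libraries), dCas9a-SAM KI/+ without an sgRNA (2), with the non-targeting sgNT (2) or with sgBcl-2 (4, from 2 MEF lines), and no lymphoma without sgBcl-2 was analysed here. The labels give the tumours opposite mouse numbers in different places, 20_180_Tumour in the title and 20_179_Tumour in the description for library 20 and the reverse for library 21, so they are called by library number.

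In a developing B cell the RAG recombinase joins one Igkv gene to one Igkj segment, which lies just upstream of the single constant gene Igkc. An Igkv gene in the orientation of the J segments joins by deletion of the DNA between them, and one in the opposite orientation joins by inversion. A clone that descends from one rearranged cell therefore carries one or a few V genes in its kappa transcripts, whereas a mixed B cell population spreads them over many, and V genes that are not joined can give low germline transcripts.

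Values are CPM (each library's reads scaled to a common total over the listed genes), and whole reads were recovered by dividing each column by its smallest non-zero value. Total reads ranged from 12474885 to 26678417 per library, with the preB-ALL libraries the shallowest, and 3 reads, the most that a count of 0 allows, correspond to 0.112 to 0.240 CPM in the B lineage libraries. Cd79a, a signalling chain of the B cell receptor, was at 325 to 755 CPM in the lines, 1603 and 1393 in the tumours, 1114 and 2059 in preB-ALL and at most 0.646 in the MEFs. Pax5, a transcription factor of the B lineage, was at 43.1 to 125 CPM in the lines, 136 and 122 in the tumours, 194 and 372 in preB-ALL and at most 0.0432 in the MEFs. The 8 B cell markers summed to 1307 to 2122 CPM in the lines and 11.8 to 25.0 in the MEFs. The sums were 5680 and 5982 CPM in the tumours and 3855 and 7009 in preB-ALL. Of these markers, Ebf1 and Ms4a1 did not separate the lines from the MEFs. Ebf1 was at 10.6 to 114 CPM in the lines and 10.8 to 23.6 in the MEFs. Ms4a1 was at 0 to 7.46 CPM in the lines and 0 to 0.0975 in the MEFs. The others were higher in every line than in every MEF library. The 10 fibroblast markers summed to 5461 CPM in CreER-LSL-Erg and 2314 in Rag-Cre-Erg, against 5.16 to 59.3 in the lines, although the fibroblast genes Dcn and Lum were at 0 or at 1 read there. The 6 plasma cell markers summed to 276 to 812 CPM in the lines, of which Mzb1 alone was 226 to 757, while Jchain, the joining chain of secreted IgM, was at 0 to 0.114 CPM and Xbp1, a transcription factor of secretory cells, at 9.86 to 37.1 in the lines and higher in every MEF library, up to 165. In the tumours the 6 summed to 307 and 463 CPM, in preB-ALL to 663 and 1096 and in the MEFs to 184 to 223. Bcl2, the target of the sgRNA, was at 46.8 to 71.8 CPM in the sgBcl-2 MEFs and 11.2 to 17.9 in the other MEFs, and at 99.4 to 165 in the lines, 235 and 244 in the tumours and 20.8 and 22.0 in preB-ALL. In bulk RNA, fewer cells with a transcript and less of it per cell cannot be told apart.

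The 103 members span 3.15 Mb, from chr6:67555636 to chr6:70704177 (GRCm38), and Igkj1 starts beyond them at chr6:70722562. By distance to Igkj1, 41 were proximal (under 1 Mb), 34 middle (1 to 2 Mb) and 28 distal (over 2 Mb). By GENCODE strand, 38 lie in the orientation of Igkj and 64 in the opposite one, with 32 of the 34 middle genes and 5 of the 28 distal genes opposite, and Igkv8-23-1 has no strand there. They fall into 20 families by the number before the hyphen.

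The V exons of the most abundant Igkv gene of each B lineage library are printed here. They are the germline exons of GENCODE M21 (GRCm38), or the last 300 bases where the exon is longer, 5′ to 3′ on the gene's strand, and were not read from the tumours. The most abundant gene did not hold most of the Igkv reads in every library. Its share was 49.2% in CreER-LSL-Erg, 25.4% in Rag-Cre-Erg and 47.7% in the line with the lowest share. Reads counted per V gene also do not show whether that gene was joined to an Igkj segment. Capitals mark the last cysteine codon, the conserved residue before the joint, and the 23 bases after it are the rest of the germline exon up to the joining end. Igkv17-127 lies at chr6:67861362-67861659 (+), Igkv8-30 at chr6:70117061-70117360 (-), Igkv3-7 at chr6:70607737-70608036 (+), Igkv1-117 at chr6:68121528-68121827 (+), Igkv3-12 at chr6:70518550-70518849 (+), Igkv1-135 at chr6:67610209-67610508 (+) and Igkv14-111 at chr6:68256572-68256869 (+). The exons are as follows.
Igkv17-127: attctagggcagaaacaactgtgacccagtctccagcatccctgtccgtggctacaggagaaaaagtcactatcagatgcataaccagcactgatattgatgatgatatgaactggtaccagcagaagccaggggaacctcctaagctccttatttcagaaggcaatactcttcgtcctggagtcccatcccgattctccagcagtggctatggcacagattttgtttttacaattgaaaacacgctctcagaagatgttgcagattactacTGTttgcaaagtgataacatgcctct
Igkv8-30: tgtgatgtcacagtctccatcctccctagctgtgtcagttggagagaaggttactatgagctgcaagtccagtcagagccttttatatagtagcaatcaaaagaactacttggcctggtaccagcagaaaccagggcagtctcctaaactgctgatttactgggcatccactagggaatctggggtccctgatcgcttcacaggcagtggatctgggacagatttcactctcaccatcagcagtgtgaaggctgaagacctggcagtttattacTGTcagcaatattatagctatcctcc
Igkv3-7: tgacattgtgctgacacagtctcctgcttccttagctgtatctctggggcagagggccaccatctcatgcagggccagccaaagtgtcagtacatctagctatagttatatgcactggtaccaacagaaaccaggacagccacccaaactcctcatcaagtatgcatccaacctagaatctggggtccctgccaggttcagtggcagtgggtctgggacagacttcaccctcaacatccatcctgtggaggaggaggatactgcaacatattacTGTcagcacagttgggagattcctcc
Igkv1-117: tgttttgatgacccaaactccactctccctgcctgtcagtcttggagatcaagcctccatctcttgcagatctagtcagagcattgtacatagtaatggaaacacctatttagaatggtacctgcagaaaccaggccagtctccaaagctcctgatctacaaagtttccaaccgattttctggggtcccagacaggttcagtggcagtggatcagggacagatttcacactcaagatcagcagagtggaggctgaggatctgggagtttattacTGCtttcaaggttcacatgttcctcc
Igkv3-12: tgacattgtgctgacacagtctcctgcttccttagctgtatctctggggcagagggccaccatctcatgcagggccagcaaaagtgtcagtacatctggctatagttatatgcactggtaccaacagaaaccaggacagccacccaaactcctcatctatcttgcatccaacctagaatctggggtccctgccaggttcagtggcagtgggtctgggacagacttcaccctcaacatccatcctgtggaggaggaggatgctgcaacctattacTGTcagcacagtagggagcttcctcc
Igkv1-135: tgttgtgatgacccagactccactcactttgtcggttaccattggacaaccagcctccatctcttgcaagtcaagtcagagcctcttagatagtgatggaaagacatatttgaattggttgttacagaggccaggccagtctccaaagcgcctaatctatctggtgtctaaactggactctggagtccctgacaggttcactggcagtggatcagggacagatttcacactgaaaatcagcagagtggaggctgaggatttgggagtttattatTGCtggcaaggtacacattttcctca
Igkv14-111: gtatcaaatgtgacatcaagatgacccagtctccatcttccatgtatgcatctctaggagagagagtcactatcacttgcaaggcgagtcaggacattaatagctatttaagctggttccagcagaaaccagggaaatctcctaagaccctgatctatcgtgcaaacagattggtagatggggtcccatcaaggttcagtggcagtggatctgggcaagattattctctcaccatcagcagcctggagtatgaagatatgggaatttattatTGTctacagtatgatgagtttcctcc

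In 5 of the 6 lymphoma lines one Igkv gene held most of the kappa V reads, and the most abundant gene was a different one in each of the 6 lines. Line 14 had 12782 of its 14045 Igkv reads on Igkv17-127, which is 91.0% (95% Wilson interval 90.5 to 91.5). Line 15 had 17916 of 20616 on Igkv8-30, which is 86.9% (86.4 to 87.4). These 2 genes lie toward opposite ends of the locus, 2.86 and 0.60 Mb from Igkj1, and Igkv8-30 was the only leading gene of a line in the opposite orientation.

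Line 16 led with the proximal gene Igkv3-7, 0.11 Mb from Igkj1, at 336 CPM and 82.8% (82.1 to 83.5) of 10714 reads. Its second gene was Igkv3-3 of the same family, with 1510 reads or 14.1% (13.4 to 14.8). No other line had more than 7 reads on Igkv3-3, so the pair stands out in line 16. Line 18 led with Igkv3-12, 0.20 Mb from Igkj1, at 592 CPM, and had the distal gene Igkv1-117 second at 125 CPM (3211 reads). Line 19 led with Igkv1-135, 3.11 Mb from Igkj1, at 195 CPM with Igkv9-124 second at 19.8 CPM. The plot of shares shows these steps side by side.

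**Figure D1:**
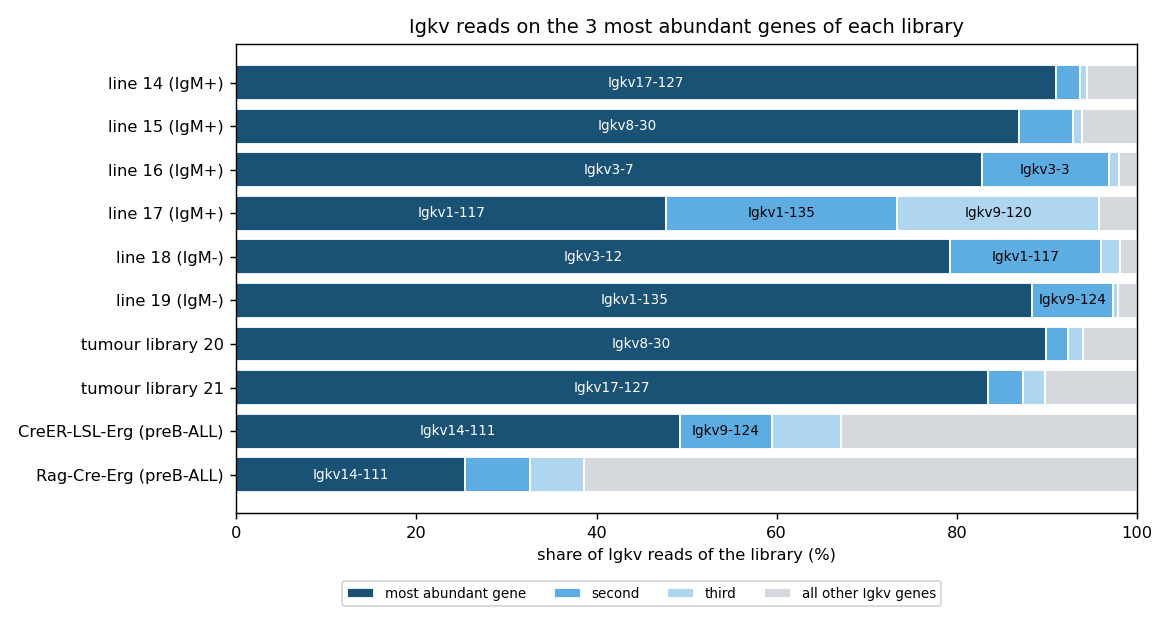
Horizontal bars give the share (%) of all Igkv reads of each B lineage library that fell on each of its 3 most abundant Igkv genes, with all others in grey. The first gene held 79.2% to 91.0% in 5 of the 6 lines and 47.7% in line 17, 89.9% and 83.5% in the tumours, and 49.2% and 25.4% in preB-ALL.

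Line 17 differed from the other lines in having 3 abundant genes. Igkv1-117 had 4555 reads (227 CPM), Igkv1-135 had 2455 (122 CPM) and Igkv9-120 had 2139 (107 CPM), together 95.8% of its 9550 Igkv reads. The 3 genes are distal and in the orientation of Igkj. Igkv1-117 and Igkv1-135 are 79.2% identical over their coding sequence with no shared 50-base stretch, and Igkv1-117 and Igkv9-120 are 65.1% identical. The effective number of genes, the inverse of the summed squared shares, was 2.90 in line 17 and 1.21 to 1.52 in the other 5 lines. Outside the distal zone, line 17 had 1 Igkv read, on Igkv3-12, and all 34 middle genes were at 0.

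The Igkv genes of a family share sequence, and how the authors counted reads that match several genes was not stated, so reads of close copies are uncertain. Igkv3-7 and Igkv3-12, the leading genes of lines 16 and 18, are 96.7% identical and share 37.7% of their 50-base stretches. Each showed a small count where the other led, 54 reads on Igkv3-12 beside 8871 on Igkv3-7 in line 16 and 221 reads on Igkv3-7 beside 15157 on Igkv3-12 in line 18. Igkv3-3 is 89.4% identical to Igkv3-7 and shares 6.77% of such stretches. Igkv9-120 and Igkv9-124 are 95.2% identical, and line 17 had 355 reads on Igkv9-124 beside 2139 on Igkv9-120. Grouped by family, the leading share was 97.5% in line 16 (family 3), 73.7% in line 17 (family 1) and 80.5% to 91.2% in the other lines.

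The exons of Igkv3-7 and Igkv3-12 are printed above, and those of Igkv3-3 and Igkv9-120 follow to show where these copies can be told apart from Igkv3-7 and Igkv9-124. In Igkv3-3 (chr6:70687235-70687534, +) capitals mark the 37 bases that differ from Igkv3-7 or lack a partner in it. In Igkv9-120 (chr6:68050159-68050456, +) capitals mark the 12 bases that differ from Igkv9-124.
Igkv3-3: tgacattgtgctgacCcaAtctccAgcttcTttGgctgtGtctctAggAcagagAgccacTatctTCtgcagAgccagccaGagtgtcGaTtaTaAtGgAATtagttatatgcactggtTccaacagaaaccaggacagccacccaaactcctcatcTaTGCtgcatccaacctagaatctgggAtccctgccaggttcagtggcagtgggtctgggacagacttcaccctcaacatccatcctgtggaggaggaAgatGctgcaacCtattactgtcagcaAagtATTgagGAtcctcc
Igkv9-120: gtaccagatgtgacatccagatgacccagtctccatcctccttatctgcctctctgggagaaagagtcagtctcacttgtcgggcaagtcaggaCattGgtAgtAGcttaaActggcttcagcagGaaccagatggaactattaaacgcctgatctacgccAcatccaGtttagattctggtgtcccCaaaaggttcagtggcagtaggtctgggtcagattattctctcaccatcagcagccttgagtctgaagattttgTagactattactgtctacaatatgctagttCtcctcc

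The primary tumours each had one dominant Igkv gene, and both genes also led in a line. Tumour library 20 had 23040 of 25622 Igkv reads on Igkv8-30 (1009 CPM, 89.9%, interval 89.5 to 90.3), the leading gene of line 15. Tumour library 21 had 27299 of 32697 on Igkv17-127 (1361 CPM, 83.5%, 83.1 to 83.9), the leading gene of line 14. In the crossed pairs the genes were near 0 to low, with 0 reads on Igkv8-30 in line 14, 8 reads on Igkv17-127 in line 15, 24 reads on Igkv17-127 in tumour 20 and 88 reads on Igkv8-30 in tumour 21. The titles give each tumour the mouse number of the line with the same leading Igkv gene, and the descriptions give the other number. This match of genes was seen in the data and did not decide the grouping.

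Tumour library 21 also had other Igkv genes at levels that line 14 did not reach. Igkv1-117 was at 63.3 CPM (1270 reads) against 3.93 CPM in line 14, and Igkv3-2, 0.02 Mb from Igkj1, was at 39.6 CPM against 1.99. In tumour library 20 these genes were at 3.64 and 1.40 CPM, below the levels in tumour 21.

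In preB-ALL both libraries led with Igkv14-111, a distal gene 2.47 Mb from Igkj1 in the orientation of Igkj, and neither had a gene with over 50% of reads. CreER-LSL-Erg had 361 of 733 Igkv reads on it (24.1 CPM, 49.2%, interval 45.6 to 52.9). Rag-Cre-Erg had 666 of 2625 (53.4 CPM, 25.4%, 23.7 to 27.1). The Rag-Cre-Erg reads were spread widest of all B lineage libraries, with an effective number of 11.5 genes, 93 genes detected and Igkv3-7 (15.3 CPM), Igkv19-93 (12.5 CPM) and Igkv2-109 (11.3 CPM) next in order. CreER-LSL-Erg had an effective number of 3.73 genes and 47 detected, with Igkv9-124 (5.01 CPM), Igkv3-2 (3.74 CPM) and Igkv3-7 (3.27 CPM) next.

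**Figure D2:**
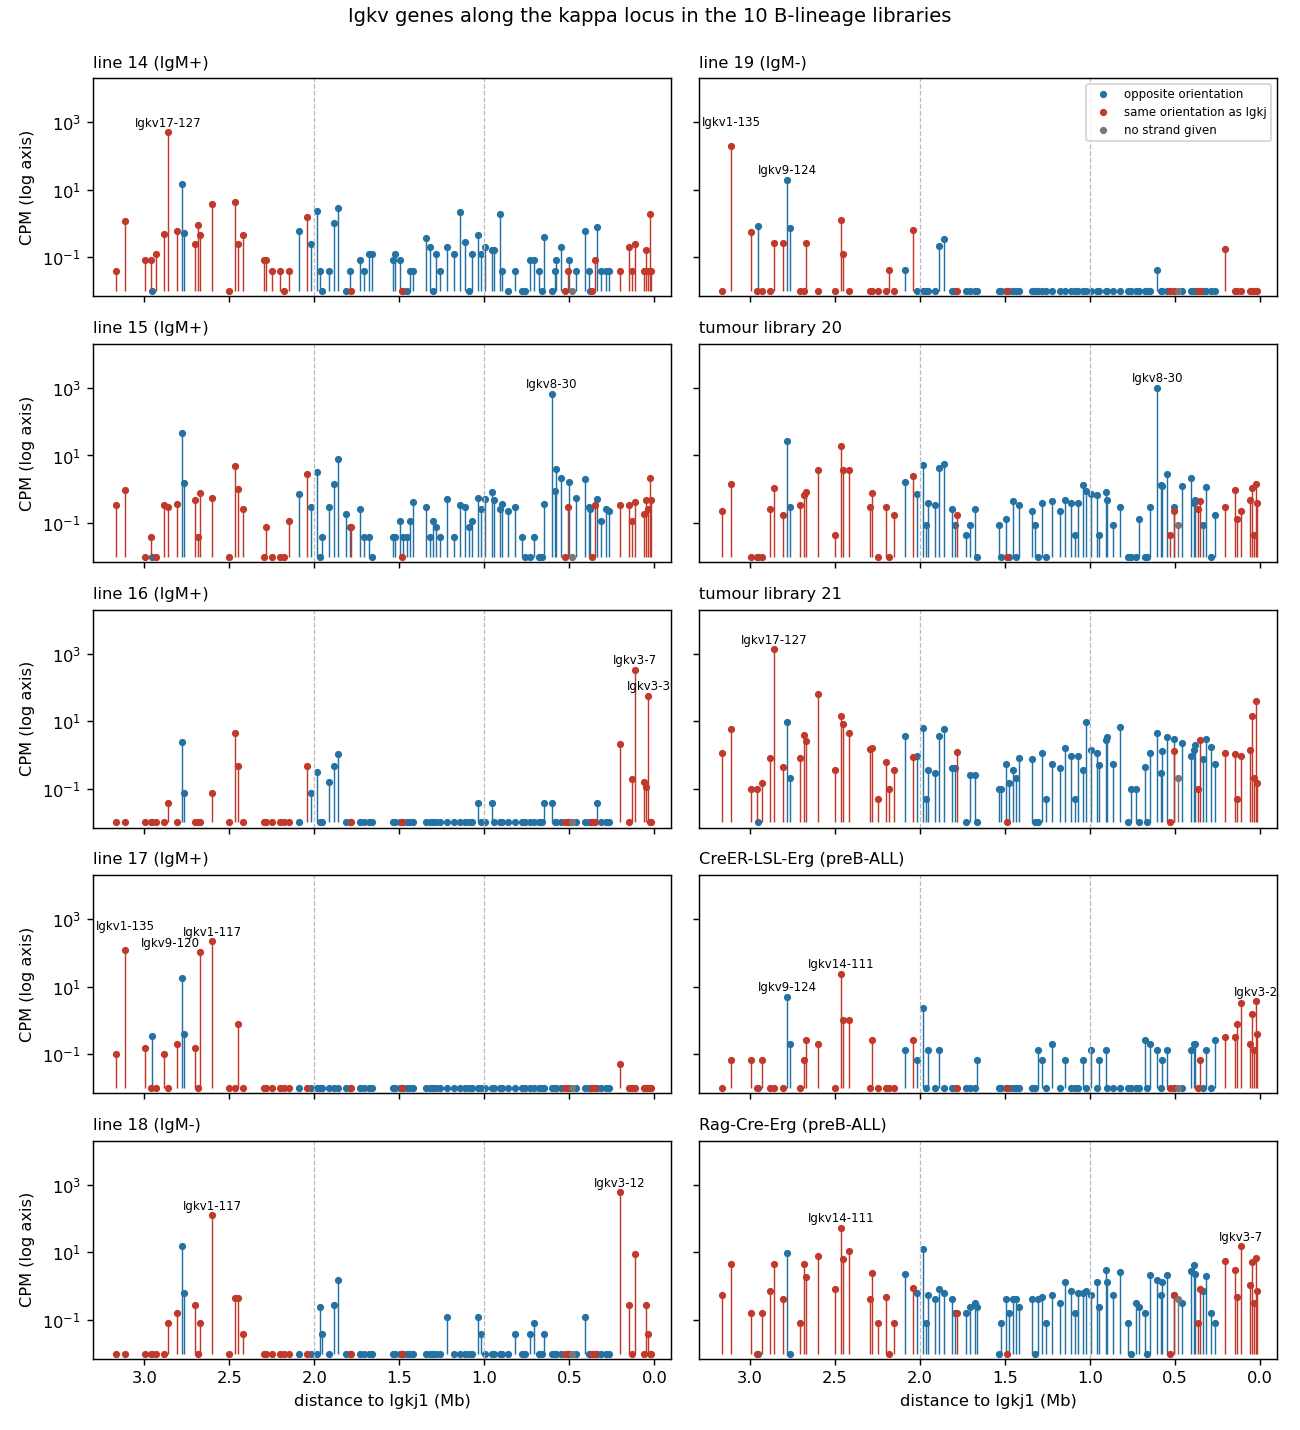
Each panel shows 1 B lineage library, with the CPM of every Igkv gene (log axis, 0 drawn at 0.01) against its distance to Igkj1 in Mb, red for genes in the orientation of Igkj and blue for the opposite one, and dashed lines at 1 and 2 Mb. Single tall genes stand out in the lines and tumours, at either end of the locus, and lines 14 and 15, the tumours and Rag-Cre-Erg have low values along the whole locus where the other 4 lines have long runs of 0.

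By position, the leading genes of the lines lay in the distal zone in lines 14, 17 and 19 and in the proximal zone in lines 15, 16 and 18. The distal zone held 96.6% of Igkv reads in line 14, all but 1 of 9550 reads in line 17 and 99.6% in line 19. The middle zone, with 34 of the 103 members, held none of the leading genes and 0% to 2.21% of the reads of a line, 2.02% and 2.30% in the tumours, and 6.68% and 11.8% in preB-ALL. Of the 7 leading genes of the B lineage libraries, 6 lie in the orientation of Igkj, where 38 of the 103 members do. This is a description of 7 genes and was not tested.

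The low-level Igkv genes divided the lines. Lines 14 and 15 had 83 and 85 of the 103 members detected, that is with at least 1 read, while lines 16, 17, 18 and 19 had 23, 13, 27 and 17. The number of Igkv reads did not follow this order, since line 18 had 19126 reads over 27 genes and line 14 had 14045 over 83. The tumours had 84 and 93 genes detected. In the middle zone, 26 of 34 genes were detected in line 14, 31 in line 15, 27 and 29 in the tumours and 31 in Rag-Cre-Erg, against 5, 0, 7 and 2 in lines 16, 17, 18 and 19 and 9 in CreER-LSL-Erg. Most of these genes were low, with 60 members of line 14 and 51 of line 15 at 1 to 9 reads.

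The Igkv reads outside the leading gene summed to 51.2 CPM in line 14, 101 in line 15, 69.9 in line 16, 249 in line 17, 155 in line 18 and 25.6 in line 19. They were spread over an effective 8.71 and 4.46 genes in lines 14 and 15 and over 1.48 to 2.33 genes in the other 4 lines. The corresponding reads of the tumours, 113 and 269 CPM, were spread over 9.98 and 11.0 genes. So lines 16, 17, 18 and 19 had their remaining reads mainly on 1 or 2 further genes.

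Across the 101 or 102 members that led in neither library of a pair, Spearman's rho of the levels was 0.80 between the 2 tumours, 0.81 between tumour 21 and Rag-Cre-Erg, 0.75 between tumour 20 and line 15, 0.51 between tumour 21 and line 14 and 0.63 between lines 14 and 15. In the crossed pairs it was 0.59 between tumour 20 and line 14 and 0.67 between tumour 21 and line 15, so it did not follow the shared leading genes. It was 0.07 to 0.58 between line 17 and the other B lineage libraries. The points are genes of one locus, many at 0 and many sharing reads with copies, and are not independent replicates, so these values only describe the profiles.

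Of the minor genes, Igkv9-124 was the most widespread. It lies 2.78 Mb from Igkj1 in the opposite orientation, led in no library, and was detected in all 10 B lineage libraries. It had 15.1, 46.3, 2.35, 17.7, 15.6 and 19.8 CPM in lines 14, 15, 16, 17, 18 and 19, 27.7 and 9.67 in the tumours and 5.01 and 9.70 in preB-ALL. It was among the 5 most abundant Igkv genes in 9 of the 10 and second in tumour 20, in CreER-LSL-Erg and in lines 14, 15 and 19. Igkv1-110 and Igkv3-12 were the only other members detected in all 10 libraries, and Igkv9-123 was in addition detected in all 6 lines.

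Igkv14-111, the leading gene of preB-ALL, was detected in 9 of the 10 B lineage libraries and ranked 3 in tumour 20 and in lines 14, 16 and 19. Its level was 4.50, 4.91, 4.47, 0, 0.43 and 1.29 CPM in the lines in the order above and 18.7 and 14.2 in the tumours. Every lymphoma library was below both preB-ALL libraries. Its nearest copy among the members, Igkv14-100, is 82.4% identical and shares no 50-base stretch with it.

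Igkv1-88, in the middle zone, was at 2.92 and 7.95 CPM in lines 14 and 15, 5.52 and 5.68 in the tumours, at most 1.52 in the other lines, and at 0 and 0.64 in CreER-LSL-Erg and Rag-Cre-Erg. It led the middle zone in every line but line 17, which had no read there. Igkv19-93, 1.99 Mb from Igkj1, led that zone in both preB-ALL libraries with 2.40 and 12.5 CPM. Members without any read in the 20 libraries were Igkv7-33 and the pseudogene Igkv13-71-1.

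**Figure D3:**
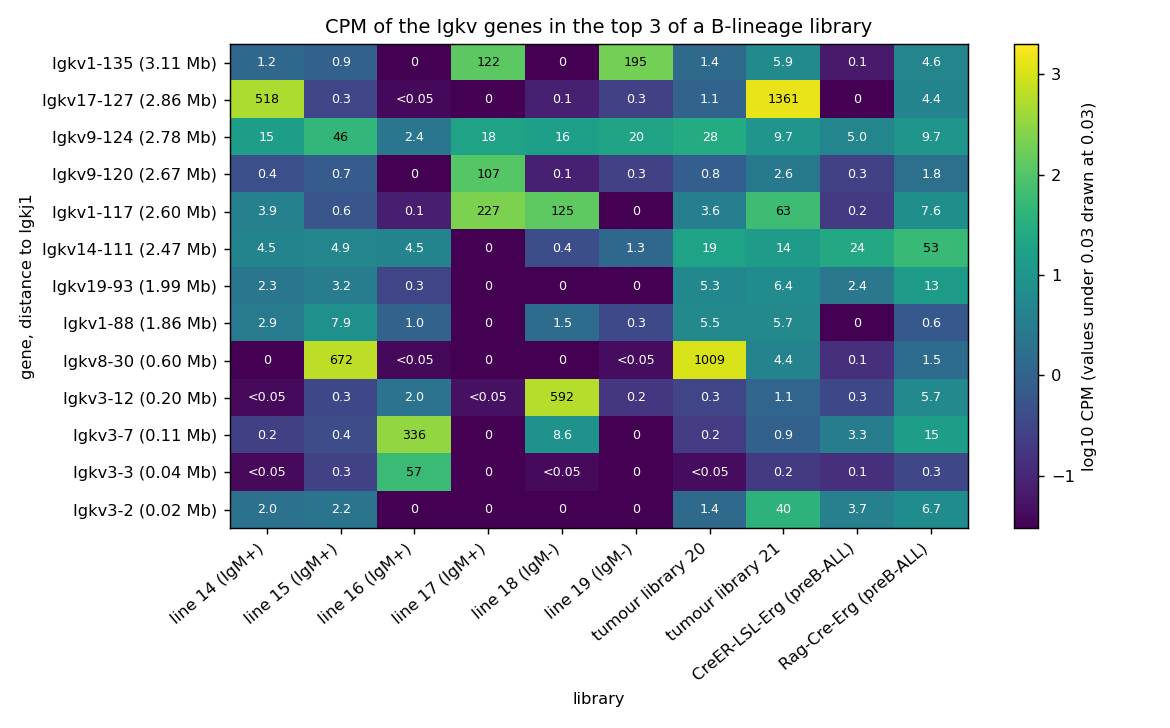
Colours give log10 CPM, with the CPM printed in each cell, for the 13 Igkv genes that were among the 3 most abundant of a B lineage library, ordered by distance to Igkj1 from far to near. The leading genes of the lines and tumours are high in 1 to 3 libraries and lower elsewhere, Igkv14-111, which led in preB-ALL, has values in 9 columns, and Igkv9-124 has a value in every column, from 2.35 to 46.3 CPM.

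Summed over the members, Igkv reached 570, 773, 406, 476, 747 and 221 CPM in lines 14, 15, 16, 17, 18 and 19, 1122 and 1631 in the tumours, and 49.0 and 210 in preB-ALL. Igkc, which is part of every kappa transcript, was at 604, 724, 375, 413, 629 and 175 CPM in the lines, 1472 and 1971 in the tumours, and 32.6 and 368 in preB-ALL. The ratio of summed Igkv to Igkc was 0.94 to 1.26 in the lines, 0.76 and 0.83 in the tumours, 1.50 in CreER-LSL-Erg and 0.57 in Rag-Cre-Erg. In the order of Igkv levels the tumours were highest and CreER-LSL-Erg lowest, and Rag-Cre-Erg at 210 CPM and line 19 at 221 CPM lay next to each other.

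**Figure D4:**
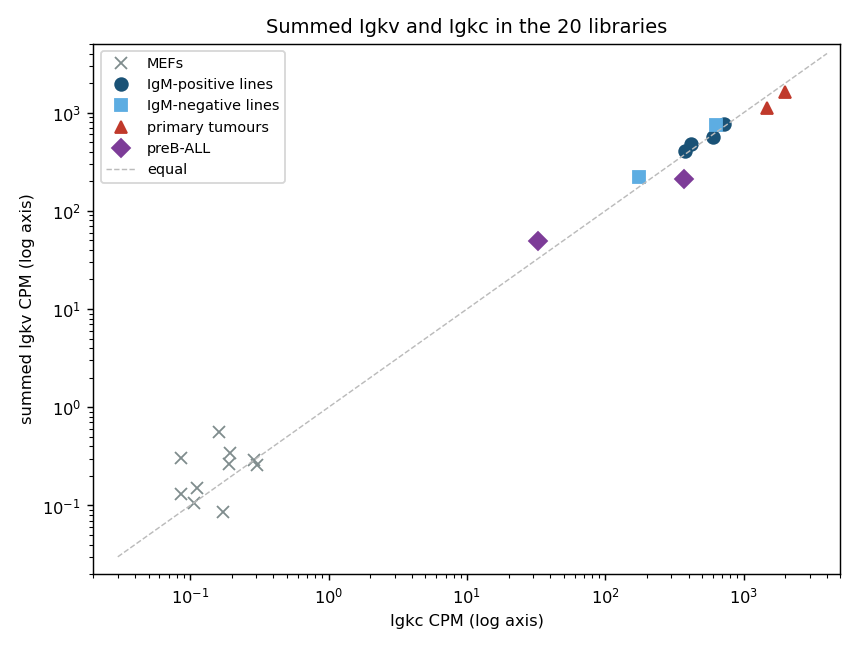
Points give the summed Igkv CPM against Igkc CPM (both log axes) for the 20 libraries, with the dashed line at equal values. The B lineage libraries lie near the line from 49.0 to 1631 CPM of Igkv, and the 10 MEF libraries lie at 0.0857 to 0.566 CPM.

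A first comparison, of the 6 lymphoma lines against both preB-ALL libraries, asked which Igkv genes differ between the lymphoma and the leukaemia. Of the 103 members, 35 passed the filter on low counts, and 4 fell in the lines while 0 rose (limma on log2(CPM + 0.1), Benjamini-Hochberg adjusted over 13961 genes). Over all tested genes 43.4% passed the test, with 22.5% lower in the lines, so a share of 4 in 35 is below the background. The median log2 difference of the tested members was -0.95, beside -0.07 over all tested genes, and a member low in the lines enters the test mainly through preB-ALL. The labels do not say whether the libraries of a group came from separate cultures beyond the line or mouse number, so p-values measure the spread between these samples.

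The 4 genes that fell were Igkv14-111, Igkv2-109, Igkv3-4 and Igkv3-9, the first 2 distal and the last 2 proximal, all in the orientation of Igkj. Igkv14-111, with the values given above, averaged 2.6 ± 2.3 CPM in the lines (SD, n = 6) and 38.8 ± 20.7 in preB-ALL (SD, n = 2), a log2 difference of -4.33 (SE 1.49, adjusted p = 0.0441). This call was lost without line 18 (adjusted p = 0.0714), without line 19 (0.0687), without either preB-ALL library (0.132 and 0.266), without a filter (0.0514) and with the tumours in place of lines 14 and 15 (0.178). Igkv2-109 had 11, 7, 0, 0, 1 and 0 reads in the lines in the order above and 15 and 141 in CreER-LSL-Erg and Rag-Cre-Erg (log2 difference -4.07, SE 0.99, adjusted p = 0.0108). None of the lines reached either preB-ALL library in these genes, but the tumours, with 3.77 and 4.49 CPM of Igkv2-109, lay above CreER-LSL-Erg at 1.00.

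Igkv3-4 had 4, 13, 3, 0, 7 and 0 reads in the lines and 23 and 64 in preB-ALL (log2 difference -3.42, SE 0.78, adjusted p = 0.00823). Igkv3-9 had 1, 3, 5, 0, 0 and 0 reads in the lines and 12 and 6 in preB-ALL (log2 difference -2.09, SE 0.50, adjusted p = 0.0105). Tumour 21 had 13.7 CPM of Igkv3-4, above both preB-ALL libraries at 1.54 and 5.13. With the tumours in place of lines 14 and 15, Igkv2-109 (adjusted p = 0.273) and Igkv3-4 (0.375) lost their calls as well, and Igkv3-9 alone was called. edgeR's quasi-likelihood test and DESeq2 did not call Igkv3-9 (adjusted p = 0.0657 and 0.202), and each called Igkv1-110 in its place beside the other 3 genes. Igkv3-4 and Igkv3-9 are family 3 genes, 0.05 and 0.13 Mb from Igkj1. The groups did not overlap in CPM for 5 of the 35 tested members, these 4 genes and Igkv3-2, against 53.4% of all tested genes. The fibroblast marker sum, the RNA kit, the sequencing run and the depth differ between these groups as well, and their part in the result cannot be told apart. With 1 preB-ALL library, assumed to vary like the lines, leaving out Rag-Cre-Erg left 1 call, Igkv3-9, and leaving out CreER-LSL-Erg gave 12 calls, which included Igkv2-109 and Igkv3-4.

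Of a list of 41 light chain and B cell receptor genes, 36 were tested in this comparison, and 4 rose and 10 fell in the lines, beside 20.9% higher and 22.5% lower over all tested genes. Igkc rose by 2.37 on the log2 scale (SE 0.83, adjusted p = 0.0465), although Rag-Cre-Erg overlapped the lines, and without CreER-LSL-Erg the difference was 0.64 (adjusted p = 0.521). The call was lost in 12 of 17 alternatives, with edgeR and DESeq2 among them. The surrogate light chain genes, whose proteins pair with the heavy chain before a light chain is made, fell in the lines. Igll1 had 78.6, 377, 80.2, 225, 8.52 and 46.8 CPM in the lines and 1370 and 1954 in preB-ALL (log2 difference -4.04, SE 1.18, adjusted p = 0.0237). Vpreb1 differed by -4.57 (SE 1.58, adjusted p = 0.0447) and Vpreb2 by -8.88 (SE 1.35, adjusted p = 0.00109).

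**Figure D5:**
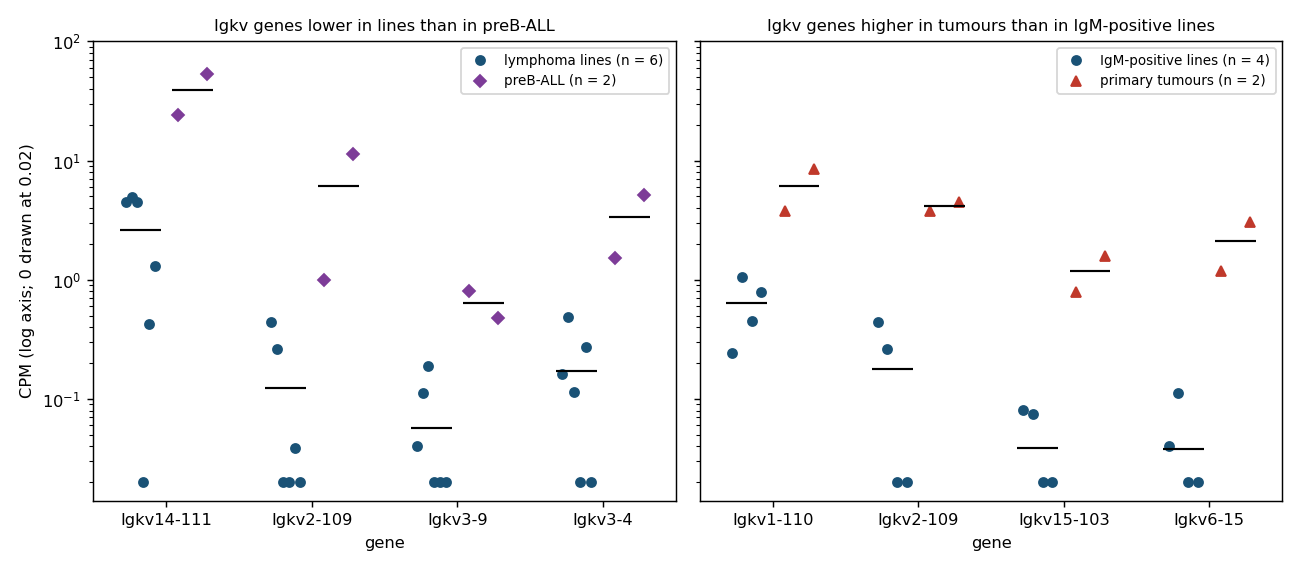
Points give the CPM per library (log axis, 0 drawn at 0.02) and bars the group means for the Igkv genes that passed the test between 6 lines and 2 preB-ALL libraries (left) and between 2 tumours and 4 IgM-positive lines (right). In both panels the groups of each gene do not overlap, and Igkv14-111 reached 4.91 CPM in the highest line but 24.1 CPM in the lower preB-ALL library.

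The IgM-negative lines were compared with the IgM-positive lines to ask whether the kappa V genes differ with the IgM label. Ighm, the gene of the IgM heavy chain, was abundant in both groups. It was at 1178 and 1441 CPM in lines 18 and 19 and at 1462 to 2711 in the IgM-positive lines. Of 18 members tested, 0 passed limma and 0 had an unadjusted p under 0.05, and over all 12386 genes 0.597% passed, 0.0484% higher and 0.549% lower in the IgM-negative lines. edgeR called 0 members with 2 at an unadjusted p under 0.05, and DESeq2 called 1, Igkv3-12, which was at 592 CPM in line 18 and at 0.17 CPM in line 19, the 2 lines of that group. The smallest adjusted p of a member with limma was 0.521. Igkc differed by -0.56 (SE 0.53, adjusted p = 0.722), and without line 19 the difference was 0.40. Leaving out 1 line of a pair leaves 1 library in that group, which is then assumed to vary like the others.

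Line 18 also had abundant lambda light chain transcripts. Iglv1 was at 365 CPM and Iglc1 at 292 CPM in line 18, beside Igkv3-12 at 592 CPM and Igkc at 629 CPM. Lambda V genes made up 33.0% of its light chain V reads, against 0.03% to 2.27% in the other 5 lines, 2.37% and 1.92% in the tumours and 2.14% and 4.68% in preB-ALL. Whether the kappa and lambda reads of line 18 come from the same cells cannot be told from a bulk library. In the tumours Iglc1 was at 327 and 107 CPM and Iglc3 at 393 and 222 CPM, while the Iglv genes summed to 27.2 and 31.9 CPM.

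The primary tumours were compared with the 4 IgM-positive lines to ask what differs between tumour tissue and culture. Of 46 members tested, 4 rose in the tumours and 0 fell, against 6.02% higher and 10.9% called in either direction over all 12983 genes. The log2 difference was above 0 for 44 of the 46, with a median of 2.31 beside 0.06 over all tested genes, and the groups did not overlap for 19, or for 42.0% of all tested genes. A member at 0 in the lines enters this test only through the tumours, so these counts describe the tested members and not all 103. The 4 lines also stood in the comparison with preB-ALL.

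Igkv1-110, a distal gene, had 6, 28, 12 and 16 reads in lines 14, 15, 16 and 17 and 87 and 169 in tumours 20 and 21 (log2 difference 3.10, SE 0.65, adjusted p = 0.0354). It is 97.2% identical to Igkv1-117, which was at 3.64 CPM in tumour 20 and 63.3 CPM in tumour 21, so its reads are uncertain. Igkv2-109 had 11, 7, 0 and 0 reads in the lines and 86 and 90 in the tumours (log2 difference 4.32, SE 0.86, adjusted p = 0.0322), and was not called by edgeR's quasi-likelihood test (adjusted p = 0.0924). They lie 2.45 and 2.42 Mb from Igkj1, close to Igkv14-111 at 2.47 Mb.

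Igkv15-103, 2.28 Mb from Igkj1, had 2, 2, 0 and 0 reads in the lines and 18 and 32 in the tumours (log2 difference 3.20, SE 0.57, adjusted p = 0.0261), and was not called by that test either (adjusted p = 0.0517). Igkv6-15, a proximal gene in the opposite orientation, had 1, 3, 0 and 0 reads in the lines and 27 and 61 in the tumours (log2 difference 3.93, SE 0.62, adjusted p = 0.0203). All 4 genes rose in both tumours from few reads in the lines. The leading genes Igkv8-30 and Igkv17-127 did not pass, and each was high in 1 line and 1 tumour. In a fit of the tumours with lines 14 and 15, paired by the mouse number of the titles as a replicate block, limma called 10 of 44 members tested, beside 28.3% of all 12719 genes tested in that fit (13.3% higher and 15% lower). These were the same 4 genes, Igkv17-127 (log2 difference 1.41, adjusted p = 0.0117), Igkv1-117, Igkv14-111, Igkv12-89 and Igkv17-121 higher in the tumours and Igkv9-124 lower (log2 difference -0.74, adjusted p = 0.0427). Igkv17-127 is 97.5% identical to Igkv17-121 and shares 37.5% of its 50-base stretches with it, so the reads of Igkv17-121 are uncertain. Paired by the number of the descriptions, 0 members and 0 genes in all were called, with 11 members at an unadjusted p under 0.05. The labels alone do not decide between the pairings. The pairing of the titles joins libraries with the same leading gene, Igkv8-30 in tumour 20 and line 15 and Igkv17-127 in tumour 21 and line 14. The pairing of the descriptions crosses them. Without the block, leaving out tumour 20, tumour 21, line 16 or line 17 left 0 calls in each case.

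Cell type markers moved with this comparison. Ms4a1, the B cell antigen CD20, was at 529 and 799 CPM in the tumours and at most 7.46 in the lines. Cd79a, Cd79b, Cd22 and Ptprc were also higher in both tumours than in each of these lines. Pax5 was not, at 125 CPM in line 15 beside 136 and 122 in the tumours, and neither was Ebf1, at 114, 107, 52.5 and 61.2 CPM in lines 14, 15, 16 and 17 and 41.6 and 85.7 in the tumours. The myeloid markers summed to 41.4 and 30.6 CPM in the tumours (6 of 7 markers detected in each) and to 5.61 to 13.1 in these lines (2 to 4 of 7), with Adgre1 at 13.3 and 6.33 CPM in the tumours and at 0 in every line. The plasma cell marker Jchain was at 1.80 and 9.72 CPM in the tumours and at 0 to 0.114 in these lines. The 6 plasma cell markers summed to 307 and 463 CPM in the tumours, within the range of 276 to 812 in these lines. The T cell markers summed to 64.3 and 34.5 CPM in the tumours (7 and 6 of 7 markers detected) and to 7.22 to 62.7 in these lines (2 to 5 of 7). Their part in the result was not tested.

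Of the light chain and receptor list, 39 genes were tested between tumours and IgM-positive lines, and 10 rose and 3 fell, beside 6.02% higher and 4.91% lower over all tested genes. Igkc rose by 1.72 on the log2 scale (SE 0.29, adjusted p = 0.0237), from 529 ± 164 CPM (SD, n = 4) to 1722 ± 353 (SD, n = 2). This call was lost in 6 of 17 alternatives, without tumour 20 (adjusted p = 0.101), tumour 21 (0.142), line 16 (0.0503) or line 17 (0.0609), with lines 14 and 15 only (0.0780) and with the pairing of the descriptions (0.286). Rag1, a subunit of the recombinase, fell by 5.34 (SE 0.98, adjusted p = 0.0274), with 98.1, 17.3, 9.51 and 11.7 CPM in lines 14, 15, 16 and 17 and 0.26 and 0.65 in the tumours. Of the 6 lines, lines 14 and 15 had the highest Rag1 and the highest Igkj levels, with the 5 Igkj segments summing to 55.3 and 41.0 CPM, against 7.13, 1.05, 12.3 and 3.06 in lines 16, 17, 18 and 19. These are also the 2 lines with 83 and 85 Igkv genes detected. The tumours, with 84 and 93 genes detected, had Igkj sums of 82.1 and 129 CPM and the Rag1 levels given above. A link between Rag1, Igkj levels and the number of genes detected was not tested. Dntt, which adds bases at the joints, was at 833 CPM in line 16 and 173 in line 17 and at most 6.42 in the other lines.

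In the MEFs Igkv reads were near 0. The 10 libraries had 2 to 14 Igkv reads with a median of 6.5, or 0.0857 to 0.566 CPM, and 13 members had at least 1 read in a MEF library. Igkc was at 0.0860 to 0.302 CPM. Of the 59 MEF reads, 32 (54.2%) fell on the 6 genes that led in the lines.

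The genes with at least 3 reads in a MEF library were Igkv12-89, Igkv17-127, Igkv1-117 and Igkv8-30. Igkv12-89 had 16 reads over 7 MEF libraries with at most 5 in one, WT replicate 2, and was at 0 to 4.21 CPM in the B lineage libraries, where it never led. That WT library stood apart in its markers, with a myeloid sum of 209 CPM against 4.86 to 8.48 in the other MEFs and a fibroblast sum of 7360 CPM against 15249 to 22093. Without it Igkv12-89 had 11 reads over 6 libraries, and the part of these markers was not tested. Igkv17-127 had 9 reads over 6 libraries, Igkv8-30 had 7 over 5, and Igkv1-117 had 8 over 3, of which 6 were in sgBcl-2 replicate 3. So Igkv12-89 was the one gene of these 4 that did not also lead a lymphoma library.

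Against the 4 sgBcl-2 MEFs, 8 members could be tested and 6 rose in the lines, where 36.3% of all 14620 genes were higher, 45% lower and 81.3% called in either direction. These members passed the filter on low counts only through the lines, so 6 of 8 describes the tested members and not all 103. The groups did not overlap for 3 of the 8 (Igkv9-124, Igkv9-123 and Igkv1-110), against 75.3% of all tested genes. The 4 MEF libraries come from 2 MEF lines, 2 from each, and the test treats them as independent. With the reads summed per MEF line, 4 members were called, and Igkv10-95 (adjusted p = 0.142) and Igkv1-88 (0.0605) were not. Igkv9-124 averaged 19.5 CPM in the lines with 1 read in the 97788866 reads of the 4 MEF libraries, a ratio of 1905 with a counting interval of 342 to 75226 (adjusted p = 2.06e-06). The other 5 had 0 MEF reads, and against 3 reads over the group they were at least 84.8-fold (Igkv14-111), 74.7-fold (Igkv1-88), 30.1-fold (Igkv10-95), 21.4-fold (Igkv9-123) and 16.9-fold (Igkv1-110) higher, with adjusted p from 0.000184 to 0.0340. Igkv14-111 and Igkv1-88 were at 0 in line 17, and Igkv10-95 in lines 17 and 18. Igkv10-95 was called in 8 of 19 alternatives. It was lost with pseudocounts of 0.5 and 1 (adjusted p = 0.0525 and 0.0646), with any single MEF library left out (0.0661 to 0.0669) and with the sums per MEF line, and did not pass the filter without lines 14, 15, 16 or 19. Igkv1-88, Igkv9-123 and Igkv1-110 each fell out of the test in the same way in 4 of 19 alternatives, when single lines were left out. Without line 15, the bounds of Igkv1-88 and Igkv10-95 fell to 37.9-fold and 17.8-fold. Without line 14 there were 3 calls and without line 15 there were 2. Of the 6 leading genes of the lines, Igkv1-117 and Igkv1-135 were the other 2 members tested and did not pass limma (adjusted p = 0.0855 and 0.0930), and the remaining 4 were kept out by the filter on low counts. edgeR's quasi-likelihood test called both (adjusted p = 0.0152 and 0.0148), as did DESeq2 (adjusted p = 0.000101 and 0.000141). With limma, Igkv1-117 was also called without line 16 or without line 19 and Igkv1-135 without line 16 or without line 18.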

How the data were processed

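RNA libraries of 20 samples were read from 1 deposited table of CPM values keyed by Entrez identifier. The study's methods name a TruSeq RNA library kit, and the preB-ALL RNA came from another kit and another sequencing run, as stated above. Per the submitters' processing notes and the study's methods, the authors mapped reads to GRCm38/mm10 and counted them with Rsubread 2.6.4 and used edgeR 3.34.1 and limma 3.48.3; the use of strand and the treatment of reads matching several genes are not given in the sources used here. Symbols, coordinates and biotypes came from the RefSeq table of GRCm38.p6 (25242 of 25869 rows had a symbol), strands and coding sequences from GENCODE M21. Whole reads were recovered from the deposited CPM, unrounded, by dividing each column by its smallest non-zero value, and 100% of values came out whole within a tolerance of 0.01. Dividing by the median step between low values gave the same reads. Totals were 12474885 to 26678417 reads per library. Reads carry no molecular identifiers, so Wilson 95% intervals and the limit of 3 reads for a count of 0 cover counting error only.

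Genes passing edgeR's filterByExpr were compared with limma (3.58.1, trend) on log2(TMM-scaled CPM + 0.1), with Benjamini-Hochberg adjustment over all tested genes and a threshold of 0.05; fold changes on this scale understate the change of low genes. The code was tested on simulated data. Alternatives were pseudocounts of 0.5 and 1, no filter, RLE or no scaling, limma-voom, edgeR's quasi-likelihood test (4.0.16) and DESeq2 (1.42.0) on recovered reads, leaving out each library, other choices of lines and tumours, families in place of genes, a replicate block and, chosen after seeing the data, MEF reads summed per MEF line and MEF counts without WT replicate 2. Versions were R 4.3.3, Python 3.11.15, pandas 2.3.3, scipy 1.17.1 and matplotlib 3.10.9.

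The named genes are the 3 Igkv genes with the most reads in each B lineage library, every Igkv gene that passed a test, and every Igkv gene with at least 3 reads in a MEF library. Genes named outside this rule (Igkv7-33, Igkv8-23-1, Igkv13-71-1, Igkv14-100, Igkv17-121) were chosen after their values were seen. The members and gene lists were chosen with earlier results of these data known.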

Additional observations from a re-analysis of the deposited data

Results flagged for a closer look

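Each of the following values was set apart by Dixon's gap test (95% level) within a group of 4 samples, a test that marks about 1 in 20 groups by chance. Among the IgM-positive lines, line 17 had an effective number of 2.90 Igkv genes, from Igkv1-117, Igkv1-135 and Igkv9-120 together, beside 1.21, 1.32 and 1.42 in lines 14, 15 and 16.

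Among the sgBcl-2 MEFs, replicate 3 had a summed Igkv level of 0.566 CPM (14 reads), beside 2 to 4 reads in the other 3. The 4 libraries come from 2 MEF lines, 2 from each, so they are not 4 independent samples. Its level outside the most abundant gene was 0.323 CPM. Of its reads, 6 fell on Igkv1-117 and 3 on Igkv8-30, both leading genes of a line.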

How the results depend on the processing

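Between lymphoma lines and preB-ALL, 4 members were called, and 10 without a filter, 7 without a scaling factor, 7 with limma-voom and 1 with the tumours in place of lines 14 and 15. Leaving out each library in turn gave 1 to 12 calls, with 1 without Rag-Cre-Erg and 12 without CreER-LSL-Erg. edgeR and DESeq2 each called 4, of which 3 were shared with limma. Without scaling, the median log2 difference of all genes moved from -0.07 to -0.42, and the split of all calls from 2914 higher and 3145 lower to 1691 higher and 4400 lower.

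Between IgM-negative and IgM-positive lines, 0 members were called, and 1 with DESeq2, Igkv3-12. The Igkc difference of -0.56 ranged from -1.50 without line 18 to 0.40, a reversal, without line 19.

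Between tumours and IgM-positive lines, 4 members were called, and 7 with a pseudocount of 1, 11 without a filter, 2 with edgeR's quasi-likelihood test (Igkv2-109 and Igkv15-103 were lost) and 0 with lines 14 and 15 only. Leaving out each library gave 0 to 8 calls, with 8 without line 15, 3 without line 14 and 0 without tumour 20, without tumour 21 and without lines 16 or 17. In the pairing of the titles each tumour and its line share the leading gene, as given above, and in that of the descriptions they do not. With lines 14 and 15 and the mouse number as a replicate block, the numbers of the titles gave 10 calls and those of the descriptions gave 0, and the labels alone do not decide between these pairings. The 10 were 9 higher, among them all 4 genes called without the block and Igkv17-127, and Igkv9-124 lower.

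Between lines and sgBcl-2 MEFs, 6 members were called, 10 without a filter, and 2 to 6 when leaving out each library (2 without line 15, 3 without line 14). With the MEF reads summed per MEF line, an alternative chosen after seeing the data, 4 were called. Over the log2 differences of the members called in each comparison and of Igkc, 234 alternatives kept the direction and the outcome of the test. Of these, 13 were for Igkc between IgM-negative and IgM-positive lines, which had no call to keep. A further 66 kept the direction and lost the call, and 1 reversed. In 16 further cases a called member of the MEF comparison did not pass the filter on low counts once a line was left out. Igkc lost its call in 12 of 17 alternatives against preB-ALL and in 6 of 17 between tumours and lines. The cause was not tested in any of these cases. Depth limits the members with few reads, since 60 of the 103 in line 14 rest on 1 to 9 reads.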
